A study of Homo sapiens with 13 samples.

Results

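EGR1, EGR2, EGR3, NR4A1, NR4A2, NR4A3, IER2, IER3, KLF4 and KLF6 are 10 early response genes, taken by name from the 63241 Ensembl gene IDs counted in 13 RNA-seq libraries of the human cell line AC16. All 10 had a row in each library and passed the filter on low counts, among 16756 genes tested. In cells given FCCP after preconditioning, 7 of them were higher than in cells that were preconditioned only (EGR1, EGR2, NR4A1, NR4A2, NR4A3, IER2 and KLF4), and IER3 and KLF6 were lower. In that comparison 20.2% of all genes tested were called higher and 19.2% lower. EGR3, with the fewest counts, was not called in any comparison.

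Immediate early genes are transcribed soon after a stimulus from factors that the cell already holds, without new protein synthesis. EGR1, EGR2 and EGR3 encode zinc finger transcription factors that bind GC-rich sites, and their corepressors are NAB1 and NAB2. NR4A1 (also named NUR77), NR4A2 (NURR1) and NR4A3 (NOR1) encode orphan nuclear receptors that can bind DNA as monomers. KLF4 and KLF6 encode Krüppel-like zinc finger factors, IER2 a nuclear protein, and IER3 a stress-inducible regulator of cell survival. In the heart and in cultured muscle cells several of these genes are known to respond to growth factors, stretch, calcium and stress.

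AC16 is a line made by fusing adult human ventricular heart cells with transformed fibroblasts, and its labels call it a myocyte with the genotype wildtype in every library. The 4 groups were control (n = 3), FCCP (n = 3), Preconditioning (n = 4) and Preconditioning+FCCP (n = 3). FCCP is a protonophore that lets protons leak across the inner mitochondrial membrane. The series describes the preconditioning as optogenetic, that is driven by light, and its design text names cells expressing mOpto, a construct, beside control cells. Which libraries carried mOpto, whether the control and FCCP cells were lit, and the dose and time of either treatment are not given in the sources used here. The labels do not tie replicates to separate cultures, and the p-values therefore reflect variation among libraries that could be technical.

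Each library held 14970803 to 20636229 gene counts, and levels are given in CPM, counts scaled to a common library size with TMM factors, which even out differences in composition. Reads that aligned to more than a single place divided the libraries by their share into a set at 7.13% to 11.5% (control 1 and 2, all FCCP libraries and preconditioning+FCCP 3) and a set at 3.16% to 5.22% (control 3, all preconditioning libraries and preconditioning+FCCP 1 and 2). FCCP and preconditioning libraries share no set, so that set and treatment cannot be told apart in their comparison. Across all genes, control 3 correlated best with preconditioning 2 (r = 0.967) and FCCP 1 with preconditioning+FCCP 3 (r = 0.965), not with libraries of their own group. Mitochondrially encoded genes took 9.58% and 8.95% of gene counts in control 1 and 2, 6.49% in FCCP 1 and 6.42% in preconditioning+FCCP 3, against 1.00% to 3.00% in the other 9 libraries. The part of this share in the results below was not tested. The labelled cell type had little marker support: 5 of 14 cardiomyocyte markers passed the filter, TNNT2 had 0 counts, and MYH6 and MYH7 had 3 and 4 counts over all libraries. The most counts were those of TTN (1016, at most 9.37 CPM), followed by ACTN2 (323, at most 3.78 CPM) and GATA4 (217, at most 6.25 CPM).

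Promoter sequence from RefSeq (GRCh38.p14) was at hand for 7 of the 10 genes, in 10 windows of the 250 bases before a start site. The windows were searched on both strands for the CArG box (the site of serum response factor, SRF), the cyclic AMP response element (CRE) TGACGTCA, its core TGACG (here called the CRE core), the NR4A monomer site (NBRE) AAAGGTCA, the EGR site GCGNGGGCG and the GC box GGGCGG. A core is part of any full CRE, and an EGR site can overlap a GC box. The stretches below are shown because they hold every CArG box and CRE core found, both classical elements of early gene promoters, which stand in capitals. EGR1 lies on the plus strand at chr5:138465324-138465437, EGR2 on the minus strand at chr10:62816396-62816496 (window 3 of its windows), NR4A3 on the plus strand at chr9:99821756-99821884, KLF4 on the minus strand at chr9:107489955-107490019 and IER2 on the plus strand at chr19:13150251-13150295.
EGR1: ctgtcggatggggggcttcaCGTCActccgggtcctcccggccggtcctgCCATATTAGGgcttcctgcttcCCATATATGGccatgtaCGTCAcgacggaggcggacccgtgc
EGR2: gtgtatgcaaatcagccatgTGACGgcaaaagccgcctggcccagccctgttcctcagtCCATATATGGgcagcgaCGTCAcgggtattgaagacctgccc
NR4A3: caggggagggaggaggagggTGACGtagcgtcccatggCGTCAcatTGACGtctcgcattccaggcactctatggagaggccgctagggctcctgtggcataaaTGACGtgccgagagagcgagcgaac
KLF4: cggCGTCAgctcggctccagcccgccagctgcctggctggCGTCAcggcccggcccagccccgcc
IER2: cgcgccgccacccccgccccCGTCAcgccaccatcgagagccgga

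The EGR1 window held 2 CArG boxes, 105 to 96 and 83 to 74 bases before the start, and 2 CRE cores. One EGR2 window held 1 CArG box with 2 cores, and the other 2 EGR2 windows held neither. NR4A3 had 4 cores and no CArG box, KLF4 had 2 cores and IER2 had 1. Neither element was found in the KLF6 window or in the 2 NR4A1 windows. Of all 35116 windows of this length, 1.16% held a CArG box and 21.2% a core. The full CRE (1.65% of all windows) and the NBRE (1.05%) were in none of the 10 windows. An EGR site, found in 8.41% of all windows, was in those of EGR1, KLF4 and KLF6. GC boxes, found in 42.6%, were in windows of KLF4, KLF6, EGR2, NR4A1 and IER2. These are matches of letters only, and no binding was measured.

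**Figure D1:**
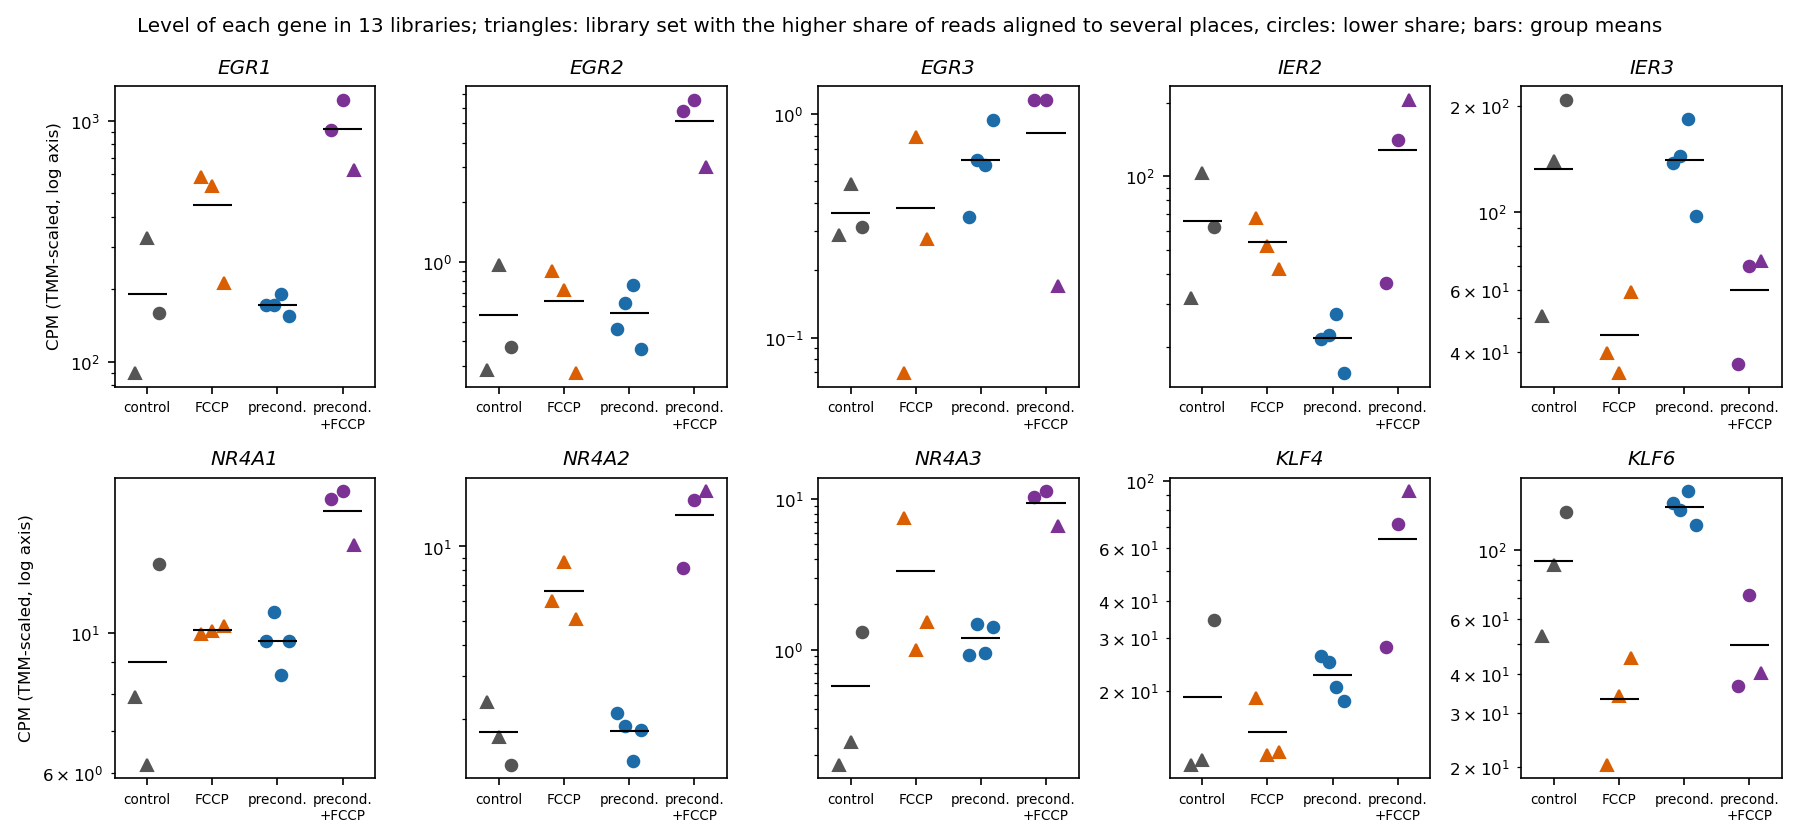
Level of each of the 10 genes in CPM (log axis) in every library of the 4 groups, with bars at the group means and the marker shape giving the library set by multiply aligned reads. All 3 preconditioning+FCCP libraries lie above every other library for EGR1, EGR2 and NR4A1, while for IER3 and KLF6 the FCCP and preconditioning+FCCP libraries lie below all preconditioning libraries.

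EGR1, the family member with the most reads, and EGR2 both had their highest levels in preconditioning+FCCP. EGR1 stood at 89.7, 326 and 159 CPM in the control libraries and at 586, 539 and 213 CPM with FCCP. It stood at 171, 172, 191 and 155 CPM with preconditioning and at 921, 1226 and 628 CPM with both. The 3 libraries given both treatments were above all others, control and FCCP overlapped, and the controls spread more than the preconditioned libraries. Against preconditioning alone EGR1 rose by a log2 change of 2.43 ± 0.38 (SE), 5.37-fold (adjusted p = 0.000234), and against control by 2.27 ± 0.42 (adjusted p = 0.0016). Adjusted p-values here and below are from edgeR's quasi-likelihood test over all genes tested, with a call at an adjusted p under 0.05. For preconditioning+FCCP against FCCP, the EGR1 log2 change was 1.05 ± 0.41 with an adjusted p of 0.0543, short of the threshold although the libraries did not overlap. FCCP against control gave 1.22 ± 0.41 (adjusted p = 0.109). The control 2 library bears on these values: without it FCCP against control reached 1.84 (adjusted p = 0.0368) and preconditioning+FCCP against control 2.87. The comparison of preconditioning+FCCP with FCCP passed the threshold for EGR1 without control 1, control 2, FCCP 1 or preconditioning+FCCP 3 (adjusted p = 0.0343, 0.0292, 0.0395 and 0.0382). In bulk RNA, fewer cells of a type and less RNA per cell cannot be told apart.

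EGR2, the gene of a factor best known from myelinating cells, was carried by few reads in 3 groups. Its levels were 0.287, 0.971 and 0.375 CPM in control, 0.902, 0.724 and 0.276 CPM with FCCP, and 0.46, 0.625, 0.769 and 0.364 CPM with preconditioning. With both treatments they were 5.79, 6.57 and 2.99 CPM, from 313 counts in the 3 libraries against 27, 28 and 39 counts in the other groups. No library of another group came near this level. EGR2 rose 8.00-fold over FCCP alone, a log2 change of 3.00 ± 0.55 (adjusted p = 0.0011), and 9.17-fold over preconditioning alone (log2 change 3.20 ± 0.49, adjusted p = 0.000197). Over control the log2 change was 3.22 ± 0.55 (adjusted p = 0.000981), and 3.90 without control 2. The change under FCCP with preconditioning exceeded that without it: the interaction, the difference of the 2 FCCP effects, was 2.98 ± 0.77 on the log2 scale (adjusted p = 0.0147), and 2.25 (adjusted p = 0.0685) without control 2. Within the set of libraries with more multiply aligned reads, which holds 1 preconditioning+FCCP library that is assumed to vary like the others, the EGR2 log2 change over FCCP was 2.21 (adjusted p = 0.156).

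EGR3, which encodes another EGR factor, had 131 counts in all 13 libraries. It stood at 0.287, 0.486 and 0.313 CPM in control, 0.0694, 0.79 and 0.276 CPM with FCCP, 0.345, 0.625, 0.592 and 0.935 CPM with preconditioning, and 1.16, 1.15 and 0.169 CPM with both. The groups overlapped throughout. Its widest contrast, preconditioning+FCCP against control, had a log2 change of 1.19 ± 0.76 (adjusted p = 0.243) and was not called. AC055854.1, which overlaps EGR3 on the opposite strand in GENCODE 29, had 24 counts, and as the strand setting is not given, reads of the pair may not have been told apart.

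Among the NR4A receptors NR4A2 was the one called higher with FCCP alone, and all 3 were called higher with both treatments than with preconditioning alone. NR4A2 stood at 2.35, 1.70 and 1.31 CPM in control and at 2.13, 1.88, 1.36 and 1.82 CPM with preconditioning. With FCCP it reached 6.04, 8.62 and 5.11 CPM, and with both 8.17, 15.4 and 16.7 CPM. Control and preconditioning overlapped, and every FCCP-treated library lay above both. The FCCP effect was 3.67-fold without preconditioning (log2 change 1.87 ± 0.35, adjusted p = 0.0185) and 7.46-fold with it (2.90 ± 0.32, adjusted p = 1.93e-05). Preconditioning+FCCP exceeded FCCP by a log2 change of 1.03 ± 0.33 (adjusted p = 0.0248), with the lowest library of the former below the highest of the latter. The interaction, 1.02 ± 0.47, had an adjusted p of 0.136 and was not called. Without FCCP 2 the effect of FCCP alone was 1.62 (adjusted p = 0.0579). The difference from FCCP was lost without FCCP 1, FCCP 3, preconditioning+FCCP 2 or preconditioning+FCCP 3 (adjusted p = 0.0541, 0.11, 0.0992 and 0.0842). Within the set with more multiply aligned reads the effect of FCCP alone was 1.74 (adjusted p = 0.115), and that of adding preconditioning to FCCP 1.34 (adjusted p = 0.11).

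NR4A3 was carried by few reads in control and spread widely within both the control and the FCCP group. Its levels were 0.172, 0.243 and 1.31 CPM in control, 7.49, 0.987 and 1.52 CPM with FCCP, and 0.921, 1.48, 0.947 and 1.40 CPM with preconditioning. With both treatments NR4A3 reached 10.3, 11.3 and 6.67 CPM. FCCP 1 was within the range of the doubly treated group, and the other FCCP libraries were near the preconditioning level. NR4A3 rose 7.89-fold over preconditioning (log2 change 2.98 ± 0.63, adjusted p = 0.00177) and by a log2 change of 4.03 ± 0.76 over control (adjusted p = 0.00168), or 5.43 without control 3. FCCP against control gave 2.53 ± 0.75 (adjusted p = 0.0711) and preconditioning+FCCP against FCCP 1.50 ± 0.65 (adjusted p = 0.0812), neither called. Both depended on single libraries: the first was 3.96 (adjusted p = 0.0224) without control 3, and the second 2.90 (adjusted p = 0.00215) without FCCP 1 and 1.47 (adjusted p = 0.0412) without control 3. Leaving out control 3 also gave a call for preconditioning against control, at 2.48 (adjusted p = 0.0366), against 1.05 ± 0.72 (adjusted p = 0.304) with all libraries.

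NR4A1 changed least of the 3 receptors. Levels of NR4A1 were 7.91, 6.19 and 12.9 CPM in control, 9.99, 10.1 and 10.3 CPM with FCCP, 9.73, 10.8, 8.58 and 9.72 CPM with preconditioning, and 16.3, 16.8 and 13.8 CPM with both. The doubly treated libraries were above all others, with control 3 next. NR4A1 rose 1.61-fold over preconditioning (log2 change 0.69 ± 0.23, adjusted p = 0.0295) and 1.74-fold over control (0.80 ± 0.25, adjusted p = 0.027). Over FCCP the log2 change was 0.63 ± 0.25 (adjusted p = 0.0648), and 0.61 (adjusted p = 0.023) without control 3. Within the set with fewer multiply aligned reads, which holds 1 control, the change over control was 0.37 (adjusted p = 0.236). The call over preconditioning was lost without preconditioning 1, 3 or 4 or preconditioning+FCCP 1 or 2 (adjusted p up to 0.109), and that over control without control 1 or 2 or preconditioning+FCCP 1 or 2 (adjusted p up to 0.132). AC025259.3, on the opposite strand, had 13 counts over all libraries, against 2518 of NR4A1.

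IER2 and IER3 share a name but not a pattern. IER2 was lowest with preconditioning and showed the widest spread with both treatments. Its levels were 31.8, 103 and 62.0 CPM in control, 67.7, 51.7 and 41.7 CPM with FCCP, 21.6, 22.5, 27.3 and 15.6 CPM with preconditioning, and 36.6, 141 and 206 CPM with both. All preconditioning libraries were below all others, and preconditioning+FCCP 1 lay among the controls. IER2 was the 1 gene of the 10 called in preconditioning against control, where it fell by 1.59 ± 0.44 on the log2 scale, 3.01-fold (adjusted p = 0.0179). The call ended without control 2 (log2 change -1.10, adjusted p = 0.123) or preconditioning 4 (adjusted p = 0.0518), and with a term for the library set in the fit (-1.17, adjusted p = 0.194). FCCP against control had a log2 change of -0.29 ± 0.47 (adjusted p = 0.775), while preconditioning+FCCP against preconditioning gave a rise of 2.56 ± 0.45, 5.88-fold (adjusted p = 0.000483). The interaction was 2.84 ± 0.65 (adjusted p = 0.00767) and was called without any single library. Against control the doubly treated libraries were not called (0.96 ± 0.47, adjusted p = 0.127). Without preconditioning+FCCP 1, IER2 was also called over control (1.38, adjusted p = 0.0183). The rise over FCCP (1.25 ± 0.47, adjusted p = 0.0493) was lost in 9 of the 13 fits without 1 library, those without any FCCP or preconditioning library or without preconditioning+FCCP 2 or 3 (adjusted p up to 0.26).

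IER3 was lower with FCCP, with or without preconditioning. It stood at 50.5, 140 and 208 CPM in control and at 138, 144, 183 and 97.5 CPM with preconditioning. With FCCP it stood at 39.8, 34.8 and 59.2 CPM, and with both at 36.9, 70.0 and 72.7 CPM. Both FCCP groups were below all preconditioning libraries, and control 1 was among them. Relative to preconditioning, IER3 fell by 1.23 ± 0.38 on the log2 scale with both treatments (adjusted p = 0.0175, and 0.0719 without preconditioning+FCCP 1). Relative to control it fell by 1.57 ± 0.40 with FCCP (adjusted p = 0.0442) and by 1.15 ± 0.40 with both (adjusted p = 0.0378). The first of these was called only with all libraries and without control 1, preconditioning+FCCP 1 or preconditioning+FCCP 3, since the other 10 fits without 1 library gave adjusted p-values up to 0.131. The second was lost without control 2, control 3, preconditioning+FCCP 1 or preconditioning+FCCP 2, and without control 3 its log2 change was -0.70 (adjusted p = 0.151). Preconditioning+FCCP and FCCP did not differ detectably (log2 change 0.43 ± 0.39, adjusted p = 0.419), nor did preconditioning and control (0.08 ± 0.37, adjusted p = 0.893). IER3-AS1 on the opposite strand had 10 counts against 21985 of IER3.

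The 2 Krüppel-like genes moved apart. KLF4, a factor of differentiation and growth arrest, stood at 11.4, 11.8 and 34.4 CPM in control, 18.9, 12.3 and 12.6 CPM with FCCP, 26.2, 25.0, 20.7 and 18.5 CPM with preconditioning, and 28.0, 71.9 and 92.3 CPM with both. Control 3 was above all preconditioning libraries and above preconditioning+FCCP 1, the lowest of its group. KLF4 rose 4.39-fold over FCCP (log2 change 2.13 ± 0.44, adjusted p = 0.00207), a call that was made without each library in turn. Within the set with more multiply aligned reads, KLF4 was the gene of the 10 that was still called over FCCP, at 2.65 (adjusted p = 0.0419), where the 1 doubly treated library is also the one with its highest level. Over preconditioning it rose by 1.50 ± 0.39 (adjusted p = 0.00641), and by 1.12 (adjusted p = 0.0519) without preconditioning+FCCP 3. Over control the log2 change was 1.74 ± 0.43 (adjusted p = 0.00716), or 2.44 without control 3. Within the set with fewer multiply aligned reads, where control 3 is the 1 control, the KLF4 log2 change over control was 0.55 (adjusted p = 0.308), and over preconditioning 1.15 (adjusted p = 0.00284). The interaction for KLF4 was 1.90 ± 0.58 (adjusted p = 0.0318). It was lost in 8 of the 13 fits without 1 library (control 3, FCCP 2 or 3, preconditioning 2, 3 or 4, or preconditioning+FCCP 2 or 3), reaching 1.17 (adjusted p = 0.0878) without control 3 and 1.53 (adjusted p = 0.088) without preconditioning+FCCP 3.

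KLF6, a widely expressed factor, followed IER3. Its levels were 53.2, 90.0 and 133 CPM in control, 20.4, 34.0 and 44.9 CPM with FCCP, 142, 134, 155 and 121 CPM with preconditioning, and 36.4, 71.6 and 40.2 CPM with both. All FCCP libraries were below all controls, and both FCCP groups were below all preconditioning libraries. KLF6 fell by 1.48 ± 0.33 on the log2 scale with FCCP (adjusted p = 0.0274) and by the same 1.48 ± 0.32 when FCCP followed preconditioning (adjusted p = 0.00203). The interaction was -0.0026 ± 0.46 (adjusted p = 0.998). Against control the doubly treated group was lower by a log2 change of -0.90 ± 0.33 (adjusted p = 0.0483), with overlapping libraries. The fall with FCCP alone was not called without control 2, control 3, FCCP 1 or FCCP 2 (adjusted p = 0.0512, 0.051, 0.051 and 0.0766). That against control with both treatments was not called in 9 of the 13 fits, those without control 2 or 3, FCCP 2, any preconditioning library or preconditioning+FCCP 1 or 3, with adjusted p-values up to 0.165 (log2 change -0.57 without control 3). Without control 3 KLF6 was called higher in preconditioning than in control (0.94, adjusted p = 0.0308), against 0.58 ± 0.31 (adjusted p = 0.179) with all libraries.

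**Figure D2:**
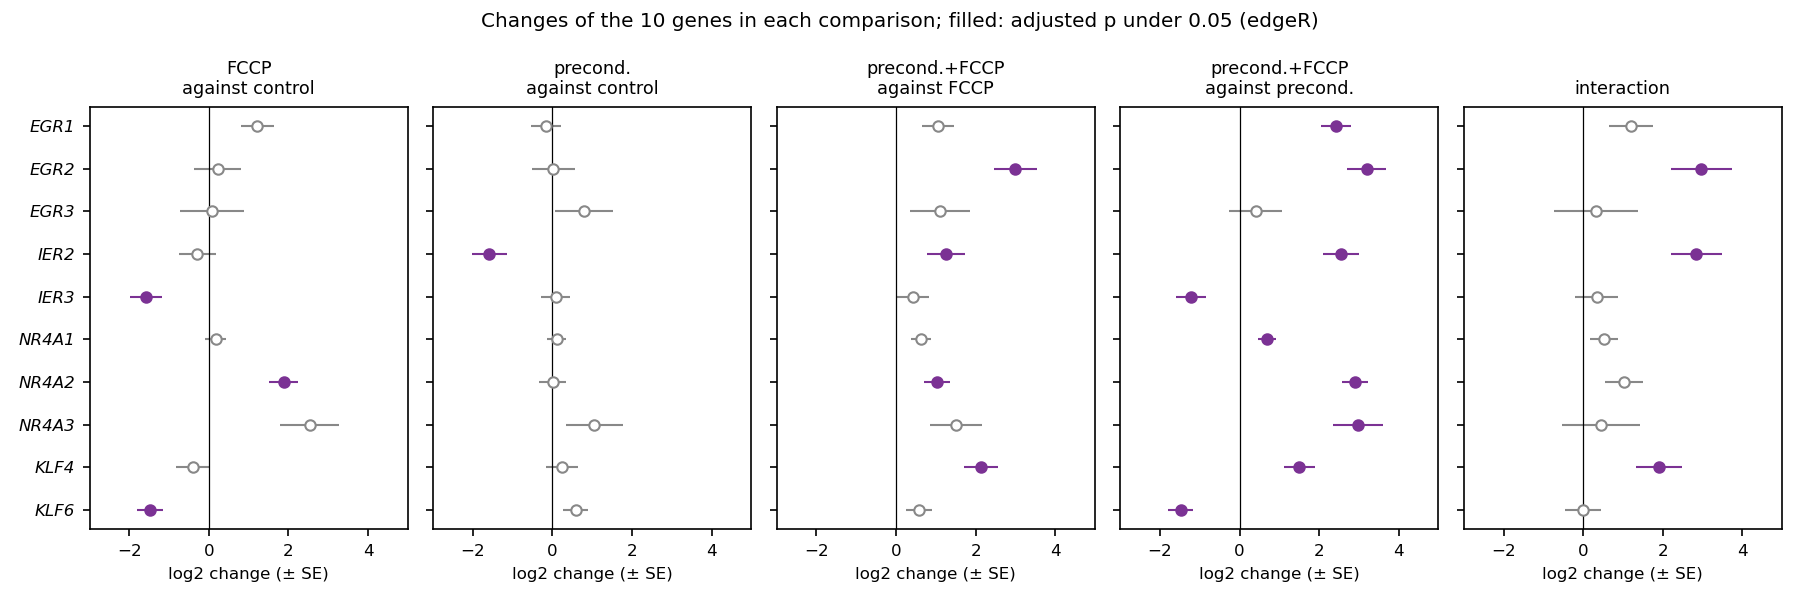
Log2 change with its standard error for each of the 10 genes in 4 comparisons and in the interaction, with filled points for an adjusted p under 0.05. Filled points are most frequent in preconditioning+FCCP against preconditioning, with 7 to the right of 0 and 2 to the left, and none of the interaction's 3 filled points lies left of 0.

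By comparison, the calls were few for single treatments. FCCP against control called NR4A2 higher and IER3 and KLF6 lower, 1 and 2 of 10, where 1.6% of all genes tested were called higher and 1.92% lower. Preconditioning against control called none higher and IER2 lower, where 10.5% and 13% of all genes were called. In preconditioning+FCCP against FCCP, EGR2, KLF4, NR4A2 and IER2 were called higher and none lower, beside 17.9% and 17.7% of all genes. All 10 log2 changes were above 0 there, with a median of 1.08 against 0.01 for all genes, and the libraries did not overlap for EGR1, EGR2, NR4A1 and KLF4. Preconditioning+FCCP against preconditioning called 7 of 10 higher and 2 lower, beside 20.2% and 19.2% of all genes. Its median was 1.97, against 0.02 for all genes, and the libraries did not overlap for any of the 9 called. The share of all genes without overlapping libraries was not counted, here or against FCCP, so non-overlap is not read as particular to these genes. Against control, preconditioning+FCCP called 6 of 10 higher and 2 lower, beside 15% and 16.2%. The interaction called EGR2, IER2 and KLF4 higher and none lower, beside 9.38% and 9.6%, with a median of 0.77 against 0.07. These comparisons share groups of libraries and are not independent of one another.

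FCCP against preconditioning called EGR1, IER2 and NR4A2 higher and IER3 and KLF6 lower, beside 19.7% and 19.4% of all genes. The EGR1 log2 change was 1.37 ± 0.38 (adjusted p = 0.00969), that of NR4A2 1.87 ± 0.32 (adjusted p = 0.000717) and that of IER2 1.30 ± 0.44 (adjusted p = 0.0281). KLF6 fell by 2.06 ± 0.33 (adjusted p = 0.000503) and IER3 by 1.66 ± 0.39 (adjusted p = 0.00391). IER2 lost its call without FCCP 1, FCCP 2 or preconditioning 1, 2 or 4 (adjusted p up to 0.101). When the fit held a term for the library set, edgeR called 0 of the 10 (6 at an unadjusted p under 0.05), where 2.11% of all genes were called, against 39.1% without the term. Log2 changes with the term were 1.57 for EGR1 (adjusted p = 0.147), 1.32 for NR4A2 (adjusted p = 0.109) and 0.63 for IER2 (adjusted p = 0.597). They were -1.39 for KLF6 (adjusted p = 0.0744) and -1.30 for IER3 (adjusted p = 0.176).

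**Figure D3:**
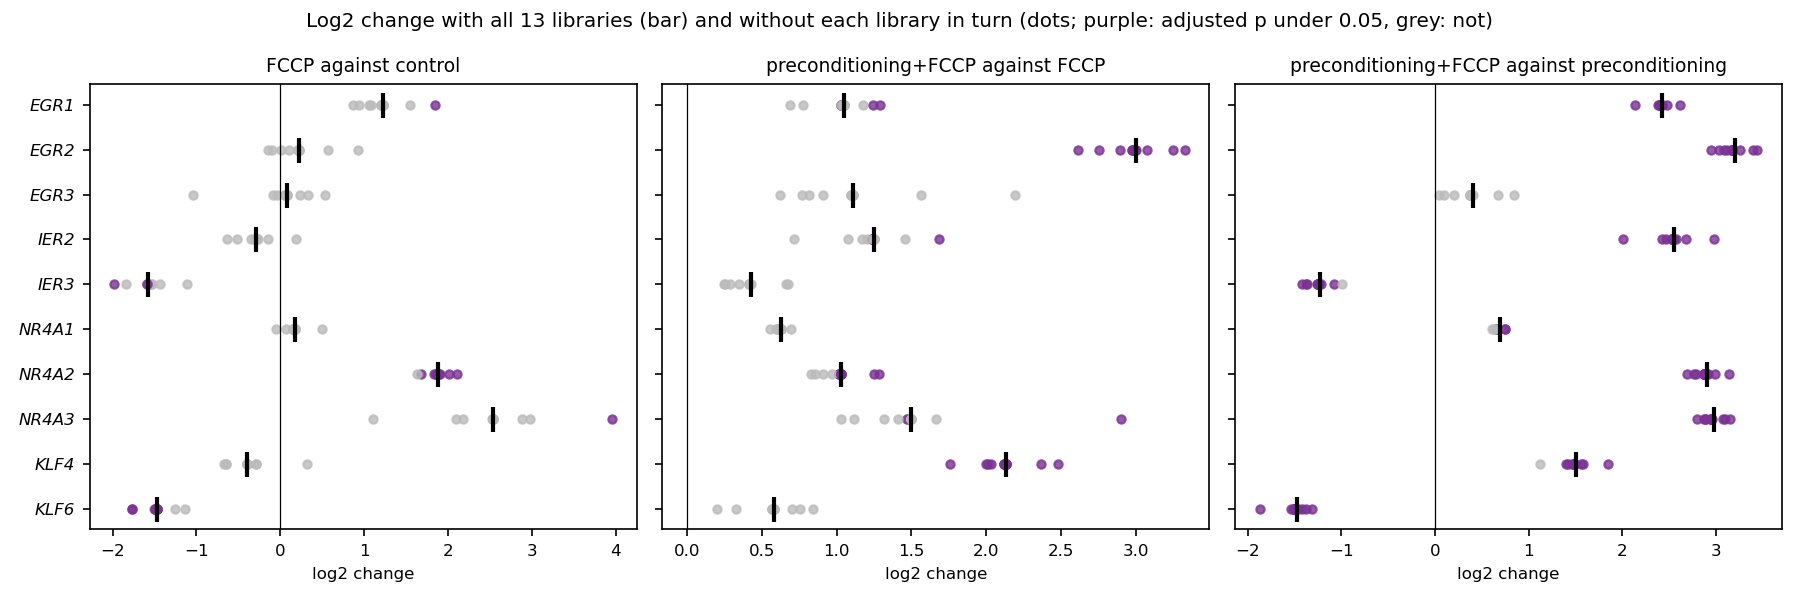
Log2 change of each gene in 3 comparisons with all 13 libraries (bar) and without each library in turn (dots, purple where the adjusted p is under 0.05). EGR2 and KLF4 are purple in every fit of preconditioning+FCCP against FCCP, and the dots of NR4A3 range from 1.11 to 3.96 in FCCP against control.

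Of the 33 calls made on these genes over the 7 comparisons, 18 were made without each library in turn. They include all 8 calls of EGR1, EGR2 and NR4A3 outside the interaction, the calls of NR4A2 over preconditioning with FCCP alone and with both treatments, and the rises of KLF4 over FCCP and over control. The last of these was not called within the set with fewer multiply aligned reads. Preconditioning+FCCP against preconditioning also called 9 of 10 within the set of libraries with fewer multiply aligned reads, which holds 2 of the 3 doubly treated libraries and all preconditioned ones, and where 52% of all genes tested were called. With the set as a term it called 8, since IER3 was not (-1.08, adjusted p = 0.051), beside 40.9% of all genes. In the same fit of all libraries, EGR2, IER2, NR4A2 and KLF4 were each called in preconditioning+FCCP against FCCP (log2 changes of 2.70, 1.60, 1.38 and 1.98). There 21.7% of all genes were called. In FCCP against control, NR4A2 and KLF6 were called with that term, IER3 was not (-1.40, adjusted p = 0.0691), and NR4A3 was (3.25, adjusted p = 0.0256). Of all genes, 5.6% were called in that comparison. In FCCP against preconditioning, which share no set, EGR1 and NR4A2 were not called with the term (adjusted p = 0.147 and 0.109). Within the set with more multiply aligned reads, with its 1 doubly treated library, log2 changes over control were 1.63, 2.28 and 5.00 for EGR1, EGR2 and NR4A3. None of these genes was called over control there. Without control 3, FCCP 1 and preconditioning+FCCP 3 together, EGR1, NR4A1 and NR4A3 were called in preconditioning+FCCP against FCCP (1.51, 0.70 and 3.10). IER2 and NR4A2 were not (0.93 and 0.78, adjusted p = 0.124 and 0.0681), beside 53.9% of all genes called. In that fit, control and FCCP libraries were all of the set with more multiply aligned reads and preconditioned ones all of the other. Set and preconditioning therefore cannot be told apart there.

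Levels per kilobase of exon (CPM per kb, with merged exon lengths from GENCODE 29) put the genes in order within a group. In control IER3 was highest at 97.9 ± 58.3 (SD, n = 3), then EGR1 at 61.0 ± 38.8, IER2 at 21.3 ± 11.6, KLF6 at 15.0 ± 6.54 and KLF4 at 5.25 ± 3.60. NR4A1 followed at 1.23 ± 0.48, NR4A2 at 0.451 ± 0.132, EGR2 at 0.148 ± 0.101, NR4A3 at 0.0913 ± 0.101 and EGR3 at 0.0745 ± 0.0223. The means ± SD of neighbours overlapped from IER3 down to NR4A1 and again among the last 3 genes. With both treatments EGR1 led at 295 ± 95.4 CPM per kb (n = 3), above IER3 at 44.1 ± 14.7 and IER2 at 41.6 ± 27.8. KLF4 at 17.5 ± 8.98 then stood before KLF6 at 8.05 ± 3.15, the reverse of their order in control. NR4A2 at 3.39 ± 1.16 stood before NR4A1 at 2.14 ± 0.22, NR4A3 at 1.49 ± 0.39, EGR2 at 1.39 ± 0.51 and EGR3 at 0.170 ± 0.117.

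The order of the groups differed from gene to gene. For EGR1 it ran from preconditioning (mean 172 ± 14.9 CPM, n = 4) through control (192 ± 122, n = 3) and FCCP (446 ± 203, n = 3) to both (925 ± 299, n = 3), with no neighbours called. NR4A2 ran from control (1.79 ± 0.52 CPM) and preconditioning (1.80 ± 0.32), not distinguishable, to FCCP (6.59 ± 1.82) and both (13.4 ± 4.62), each called over the step below. KLF6 ran the other way, from FCCP (33.1 ± 12.3 CPM) and both (49.4 ± 19.3), not distinguishable, to control (92.2 ± 40.1) and preconditioning (138 ± 14.4), of which the step to control was called. KLF4 had 3 groups between 14.6 ± 3.76 and 22.6 ± 3.62 CPM with no step called among them, and then both treatments at 64.1 ± 32.9.

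**Figure D4:**
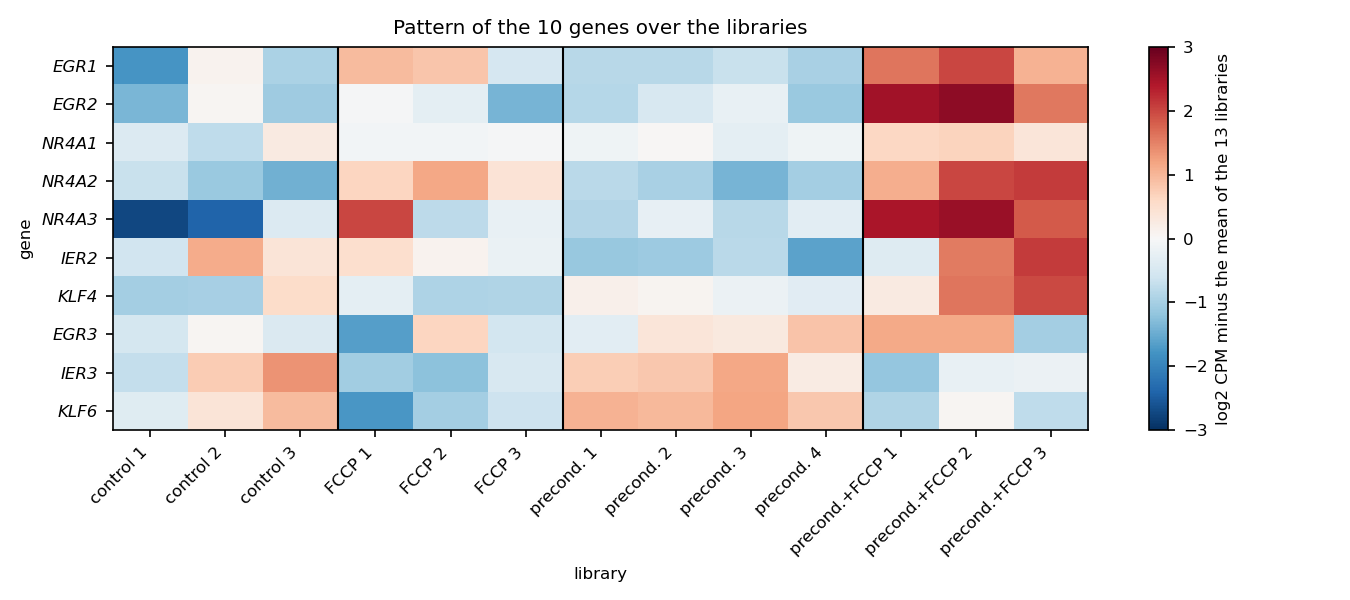
Log2 CPM of each gene minus its mean over the 13 libraries, with libraries in columns and vertical lines between the groups. The upper 7 genes are mostly red in the preconditioning+FCCP columns, IER3 and KLF6 are mostly blue in the FCCP and preconditioning+FCCP columns, and control 1 and control 3 differ in colour for several genes.

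Over the 13 libraries, which share the treatment groups and the library sets, log2 CPM of EGR1 and EGR2 had a Pearson r of 0.885, and IER3 and KLF6 one of 0.912. After subtracting group means the values were 0.929 and 0.773. NR4A1 and NR4A3 had r = 0.850 (0.591 after subtraction), NR4A2 and NR4A3 0.731 (-0.431), and NR4A2 and KLF6 -0.731 (-0.191). The pairs EGR1 and NR4A2 (0.840) and EGR2 and KLF4 (0.668) were near or below 0 after subtraction (-0.0472 and -0.176). IER2, which correlated with IER3 at -0.180, had r = 0.669 with it within groups. These coefficients describe the libraries and carry no test.

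The other genes whose log2 CPM ran most alike over the 13 libraries, among those with a mean of at least 5 CPM, were mostly outside the early response. For EGR1 they were EAPP, IFT74 and CHCHD7 (r = 0.914 to 0.906), and for EGR2 DACT1, CBFB and EOLA1 (0.962 to 0.942). NR4A2 ran most like FOSB, an AP-1 subunit gene (0.943), then RNF166 and SERPINI1. NR4A3 ran like TMEM63B, PMM1 and SLC25A25 (0.975 to 0.972), and NR4A1 like C2CD2L and MERTK (0.969 and 0.948). IER3 was followed most closely by UTP18, MYC and TMEM177 (0.942 to 0.922), and KLF6 by IRS1, GEMIN4 and TRIM32 (0.960 to 0.957). For IER2 they were TIAL1, H2AC6 and NAE1 (0.936 to 0.906), for KLF4 SMC6, SACM1L and DHX35 (0.968 to 0.949), and for EGR3 NLRX1, C2orf72 and LGALSL (0.891 to 0.877). After subtracting group means, r was 0.489, 0.578 and 0.421 for the 3 genes most like NR4A2, 0.542 to 0.681 for those most like EGR1, and 0.524 to 0.968 for the others named here.

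All 32 other immediate early genes on a list of AP-1 subunits, feedback regulators and the like were tested, and 16 of them rose with FCCP after preconditioning relative to preconditioning alone, beside 20.2% of all genes. FCCP against control called 4 higher and 4 lower, beside 1.6% and 1.92% of all genes, with a median log2 change of -0.03 against -0.04 for all genes. ARC, a neuronal plasticity gene, rose by 3.77 ± 0.44 (adjusted p = 0.00188) and GADD45B, a stress-response gene, by 1.86 ± 0.35 (adjusted p = 0.0185), while MYC fell by 2.12 ± 0.40 (adjusted p = 0.0185). Preconditioning against control called 1 higher (FOSL2, 0.73 ± 0.16) and 4 lower, beside 10.5% and 13%, among them FOS (log2 change -2.67 ± 0.73, adjusted p = 0.0168) and GADD45B (-1.16 ± 0.32, adjusted p = 0.0181). Preconditioning+FCCP against preconditioning called these 16 higher and 7 lower (19.2% of all genes, median 0.96 against 0.02), with the smallest adjusted p for ARC at 4.36 ± 0.39, FOSB at 7.01 ± 0.72 and GADD45B at 2.76 ± 0.33. Against FCCP alone 8 were higher and 1 lower (17.9% and 17.7% of all genes, median 0.53 against 0.01), with FOSB at 3.51 ± 0.68, CSRNP1 at 1.09 ± 0.28 and DUSP5, a MAP kinase phosphatase gene, at 1.09 ± 0.30. Against control 9 were higher and 7 lower (15% and 16.2% of all genes), with ARC at 4.20 ± 0.44, FOSB at 6.83 ± 0.81 and FOSL1 at -1.72 ± 0.25. The interaction called 3 higher and none lower (9.38% and 9.6% of all genes): FOS at 4.03 ± 1.03, FOSB at 3.69 ± 0.96 and NFKBIZ, an inducible regulator of NF-κB, at 1.90 ± 0.60 (adjusted p = 0.0141, 0.0149 and 0.0387). FOS and IER2 both had a called fall with preconditioning and a called interaction.

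Of 19 other genes of the EGR, KLF and IER families and their close relatives, 16 were tested, and their counts stand beside the shares of all genes just given for each comparison. FCCP against control called KLF2 (log2 change -1.56 ± 0.39, adjusted p = 0.0415) and KLF10 (-1.19 ± 0.31, adjusted p = 0.0477) lower and none higher. Both had a called interaction in the other direction, 1.71 ± 0.52 for KLF2 and 1.42 ± 0.42 for KLF10, where KLF17 (-3.20 ± 0.87) and KLF7 (-1.34 ± 0.38) were lower. Preconditioning against control called 4 higher and none lower (10.5% and 13% of all genes), with the smallest adjusted p for KLF3, KLF13 and KLF12 at 0.66 ± 0.15, 1.19 ± 0.29 and 0.85 ± 0.24. With FCCP after preconditioning, 2 were higher and 5 lower than with preconditioning alone (20.2% and 19.2% of all genes, median -0.27 against 0.02), with KLF17 at -3.76 ± 0.68, KLF7 at -1.34 ± 0.26 and KLF11 at -1.30 ± 0.27. Against FCCP 4 were higher and 2 lower, with KLF17 at -3.87 ± 0.70, KLF15 at 3.82 ± 0.89 and WT1, which encodes an EGR-like zinc finger factor, at 1.00 ± 0.28. Against control KLF17 was at -4.42 ± 0.70, KLF15 at 4.52 ± 0.94 and KLF16 at 0.82 ± 0.22, among 2 higher and 2 lower.

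Transcripts of 26 kinases and factors that act upstream of early genes were not called by edgeR with FCCP alone, where MAPK3 had 0.56 ± 0.16 (adjusted p = 0.0691) and MAP2K2 0.62 ± 0.20 (adjusted p = 0.095). At an unadjusted p under 0.05 there were 7, and DESeq2 called 2 and limma-voom 0. Of all genes tested, edgeR called 1.6% higher and 1.92% lower there. Preconditioning called 7 higher than control and none lower (10.5% and 13% of all genes), among them RPS6KA3 and MAPK3 at 0.81 ± 0.17 and 0.54 ± 0.15. In preconditioning+FCCP against FCCP 12 were higher and 4 lower (17.9% and 17.7% of all genes, median 0.46 against 0.01), with MAPK3, the gene of the kinase ERK1, at -1.07 ± 0.16, MEF2A at 1.07 ± 0.20 and RPS6KA2 at 1.45 ± 0.29. Against preconditioning 2 were higher and 4 lower (20.2% and 19.2%), with ELK3 at -1.31 ± 0.18, MAPK3 at -1.05 ± 0.16 and CRTC2, a CREB coactivator gene, at 0.96 ± 0.15. Against control 7 were higher and 2 lower (15% and 16.2%), with the smallest adjusted p for MEF2C at 2.26 ± 0.46, ELK3 at -0.87 ± 0.18 and CRTC2 at 0.72 ± 0.17. The interaction called MAPK3 (-1.61 ± 0.23, adjusted p = 0.000575), ELK3 (-0.81 ± 0.25) and MAP2K2 (-0.82 ± 0.28) lower and none higher (9.6% and 9.38%).

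Of 7 corepressors and partners 6 were tested. PIAS3, NAB1, NAB2 and the NR4A partner gene RXRA were lower with FCCP after preconditioning than with preconditioning alone, at -1.06 ± 0.14, -0.53 ± 0.15, -0.86 ± 0.25 and -0.55 ± 0.17, and none was higher, where 19.2% of all genes were lower. NAB2, which is also counted among described EGR1 targets, was lower than in control as well (-0.91 ± 0.27, adjusted p = 0.0185), as was PIAS3 (-0.62 ± 0.15, adjusted p = 0.00709). By edgeR 0 were called in FCCP against control, where NAB1 had -0.43 ± 0.16 (adjusted p = 0.151), with 1 at an unadjusted p under 0.05 and 0 by DESeq2 and limma-voom. In preconditioning+FCCP against FCCP 0 were called as well, where PIAS3 had -0.38 ± 0.15 and RXRA -0.43 ± 0.18, with 2 at an unadjusted p under 0.05, 1 by DESeq2 and 0 by limma-voom. Of all genes, edgeR called 1.6% higher and 1.92% lower in FCCP against control, and 17.9% and 17.7% in preconditioning+FCCP against FCCP. PIAS3 was called higher with preconditioning (0.45 ± 0.14) and lower in the interaction (-0.83 ± 0.21).

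All 16 described EGR1 targets were tested. Preconditioning+FCCP against preconditioning called 2 higher and 9 lower (20.2% and 19.2% of all genes, median log2 change -0.85 against 0.02), among them F3, the tissue factor gene, at -2.37 ± 0.29 and FGF2 at -2.01 ± 0.28. Against control 1 was higher and 4 lower (15% and 16.2%), with F3 at -2.53 ± 0.30, THBS1 at -1.71 ± 0.34 and FGF2 at -1.03 ± 0.28. Against FCCP 2 were higher and 3 lower (17.9% and 17.7% of all genes), with PDGFA at 1.31 ± 0.24 and IGF2 at -1.14 ± 0.25. FCCP against control called F3 lower (-1.92 ± 0.30, adjusted p = 0.00683) and none higher, beside 1.92% and 1.6% of all genes. Preconditioning against control called 4 higher, among them ICAM1 at 1.32 ± 0.29 and FGF2 at 0.98 ± 0.27, and none lower (10.5% and 13%). The interaction called 2 higher, among them PDGFA (1.68 ± 0.32), and 4 lower, beside 9.38% and 9.6% of all genes.

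Fibroblast markers were lower in the doubly treated group. All 11 passed the filter, 10 were called lower than with FCCP, 9 lower than with preconditioning and 10 lower than in control, with none higher, where 17.7%, 19.2% and 16.2% of all genes were lower. Their summed level was 5792 to 12812 CPM in control, 7544 to 9603 with FCCP, 7123 to 7664 with preconditioning and 1583 to 3174 with both. Summed smooth muscle markers (6 of 6 tested) were 174 to 236 CPM in control, 156 to 259 with FCCP, 282 to 354 with preconditioning and 71.2 to 104 with both. The endothelial sum (4 of 6 tested) was 2.58 to 4.80 CPM with both treatments and 7.40 to 25.7 in the other groups. Most endothelial counts were those of TEK, 2449 over all libraries, followed by VWF with 258. The immune sum (2 of 6 tested) reached 8.83 CPM with FCCP, and each FCCP library was above the 1.50 to 5.27 CPM of all other libraries. Most immune counts were those of CD14, 657 over all libraries, followed by PTPRC with 145. The cardiomyocyte sum lay between 3.67 and 13.0 CPM. The part of these shifts in the levels of the 10 early genes was not tested.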

How the data were processed

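Poly-A RNA of 13 AC16 libraries was compared in 4 groups taken from the labels' treatment. The authors deposited raw read counts per gene for each library, and the submitters' processing notes list HISAT2, HTSeq and hg19 but no versions, so the annotation release is not settled and the sequences and exon lengths used here come from GRCh38. Summary rows stayed out of library sizes and tests. They held reads outside genes (2.13% to 5.20%), in more than 1 gene (11.0% to 12.4%) and with more than 1 alignment (3.16% to 11.5%). The labels' protocols describe both directional and non-directional libraries, and no source used here gives the strand setting.

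Genes that passed edgeR's default expression filter (16756) were scaled with TMM and tested with edgeR's quasi-likelihood test (edgeR 4.0.16, R 4.3.3) in 1 model of the 13 libraries with a coefficient for each group, with Benjamini-Hochberg adjustment over all genes and a threshold of 0.05. The SE was taken from the log2 change and the F statistic (absolute change over the root of F). The scripts were tested on simulated data. Within every group, replicate libraries differed by more than counting noise (chi-square per degree of freedom at least 3.12).

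The 10 genes and the lists were chosen with earlier results of these data known. Named beside them were, per list and comparison, up to 3 called genes with the smallest adjusted p (or 2 genes where none was called), and per member the 3 genes with the highest Pearson r over the libraries, using log2 CPM with a prior count of 2. Some genes that this rule names are not reported here. Alternatives were DESeq2 1.42.0, limma-voom 3.58.1, other scalings, filters and thresholds, a replicate block, the library set, and libraries left out.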

Additional observations from a re-analysis of the deposited data

Results flagged for a closer look

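For 3 of the 10 genes the FCCP effect differed between preconditioned and other cells by the interaction test of edgeR. All 3 were called higher, beside 9.38% of all genes called higher and 9.6% lower. EGR2 had a difference of 2.98 on the log2 scale: its FCCP effect was 3.20 with preconditioning and 0.22 without. IER2 had 2.84, from effects of 2.56 and -0.29, and all 4 preconditioning libraries were lower than all controls. KLF4 had 1.90, from effects of 1.50 and -0.39. The interaction call of KLF4 was lost in 8 of the 13 fits without 1 library, and that of EGR2 without control 2 (adjusted p = 0.0685). For none of the 10 genes did the highest or lowest preconditioning library stand out by Dixon's test. The test was run on the 4 preconditioning libraries only, and the groups of 3 were not tested.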

How the results depend on the processing

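No log2 change of a called gene changed sign under any setting run. The number of the 10 genes called in FCCP against control was 3, and became 1 with library totals as scaling, 5 without a filter, 5 with DESeq2, 0 with the compared groups alone, 0 at an adjusted p under 0.01, 0 within the set with more multiply aligned reads, and 0 to 3 without each library in turn. In preconditioning against control it was 1. It became 2 without a filter, 0 with limma-voom and 0 at 0.01. It was 0 with a term for the library set, and 0 to 3 without each library. When control 3, FCCP 1 and preconditioning+FCCP 3 were all left out it became 4. Of all genes 48.9% were called then, against 23.6% with all libraries. In that fit, library set and preconditioning cannot be told apart. In preconditioning+FCCP against FCCP the number called was 4. It became 7 with library totals, 7 without a filter and 2 with at least 5 CPM in 3 libraries (which EGR2 and EGR3 do not pass). It was 2 with the compared groups alone, 2 at 0.01, and 2 to 6 without each library. In preconditioning+FCCP against control the number was 8, and became 5 with the compared groups alone, 5 at 0.01, and 5 to 8 without each library. For both of these comparisons, counts within the set with more multiply aligned reads are left out, as it holds 1 doubly treated library. In FCCP against preconditioning the number called was 5, and became 0 with a term for the set and 4 to 6 without each library. The interaction went from 3 to 1 at 0.01, and to 2 to 3 without each library. In preconditioning+FCCP against preconditioning the 9 calls became 7 to 9 without each library, where 29% to 44.1% of all genes were called. The share of all genes tested that was called moved with the settings too. In preconditioning against control it was 23.6%, and 11.1% without a filter, 23.9% with limma-voom, 8.5% at 0.01 and 2.74% with the set term. It was 8.68% to 34.8% there without each library. In preconditioning+FCCP against control it was 31.2%, 19.2% with the compared groups alone, 14.9% at 0.01 and 17.9% to 38.2% without each library. In FCCP against preconditioning it fell from 39.1% to 2.11% with the set term, and in the interaction from 19% to 7.17% at 0.01. Without each library it was 29% to 44% in FCCP against preconditioning and 11.6% to 26.1% in the interaction. Library totals moved the median of all genes by 0.12, 0.18 and 0.20 on the log2 scale in preconditioning against control, preconditioning+FCCP against FCCP and preconditioning+FCCP against control. In FCCP against control the share of all genes called was 3.52%, and 2.36% with library totals, 2.96% without a filter and 7.91% with DESeq2. It was 0.111% with the compared groups alone, 0.137% at 0.01 and 0.818% to 5.1% without each library in turn. Within the set with more multiply aligned reads it was 0.174%. In preconditioning+FCCP against FCCP it was 35.7%, 37.1% with library totals, 16.4% without a filter and 44.8% with at least 5 CPM in 3 libraries. It was 27.8% there with the compared groups alone, 18.9% at 0.01 and 22.1% to 40.8% without each library. The cause of these changes was not tested.

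Replicate numbers are shared by the labels of the groups. Of 18 same-numbered pairs of libraries, 1 had deviations from the group means that correlated above 0.1 (r from -0.200 to 0.158). With groups of 3 or 4 libraries, some of them unlike their own group, this check cannot exclude a pairing. With a replicate block the calls numbered 0 in FCCP against control, 0 in preconditioning against control, 3 in preconditioning+FCCP against FCCP, 8 in preconditioning+FCCP against preconditioning, 6 in preconditioning+FCCP against control, 4 in FCCP against preconditioning and 1 in the interaction (IER2), so that 11 calls were lost. Of all genes, the block left 0.316% called in FCCP against control (3.52% without the block) and 11% in preconditioning against control (23.6%). It left 29.3% (35.7%) in preconditioning+FCCP against FCCP and 29.9% (39.4%) in preconditioning+FCCP against preconditioning. The shares were 23.5% (31.2%) in preconditioning+FCCP against control, 29.1% (39.1%) in FCCP against preconditioning and 11.3% (19%) in the interaction. EGR3, EGR2 and NR4A3 had the fewest counts of the 10 genes.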
